A study of Mus musculus with 6 samples.

Results

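Integrins are cell-surface receptors for the extracellular matrix, each made of an alpha and a beta chain, and focal adhesions are the protein assemblies that tie the inner tails of these receptors to the actin cytoskeleton. The 40 genes described here are 19 integrin chains with numbered symbols (11 alpha and 8 beta) and 21 named genes of the focal adhesion, chosen by symbol out of 23420 genes listed for whole embryonic mouse lungs at stage E11.5dpc. Of the 40 genes, 1 changed at an adjusted p under 0.05 in lungs labelled as lacking Raptor, a part of mTOR complex 1 (mTORC1), in the epithelium. This gene was *Fermt1*, the kindlin of epithelial cells, whose mean normalized count fell by 52.0%. The other 39 did not pass, and the most abundant chain, *Itgb1*, differed by 0.04 on the log2 scale between the groups. In 5 of 14 alternative fits *Fermt1* kept its direction but did not pass.

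The study compared control lungs (*Rptor* f/+; *Shh* Cre/+) with mutant lungs (*Rptor* f/f; *Shh* Cre/+), where *Rptor*, spelled Raptor in the labels, encodes the scaffold protein of mTORC1. Each group had 3 libraries, and each library was a pool of several whole lungs that shared a genotype. Both groups carried 1 copy of *Shh* Cre, a knock-in at the *Shh* locus that drives recombination broadly in the lung epithelium, so by their labels the controls also lacked 1 *Shh* copy and had a single floxed *Rptor* copy, while the mesenchyme, vessels, mesothelium and nerves of the mutant lungs kept *Rptor*. The supplement of the study names the control of this comparison without the floxed copy, and the labels are followed here. The values are normalized counts, that is, read numbers scaled so that libraries of unequal depth can be compared, and they summed to between 20705058 and 20865998 per library.

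In a developing lung the epithelial tube sits on a basement membrane of laminin, collagen IV and nidogen, and is surrounded by mesenchyme rich in fibronectin and fibrillar collagens. Talins and kindlins bind the tails of beta chains and switch the receptors to a state that holds matrix. Vinculin, alpha-actinins, filamins and tensins then connect the site to actin, while the complex of ILK, PINCH proteins and parvins and the kinases FAK and Src carry the signal onward.

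Log2(normalized count + 1) was compared between mutant and control pools with limma over all 17168 genes that reached a value of 1 in 3 or more of the pools, and p-values were adjusted by Benjamini-Hochberg. All 40 genes passed this filter. At an adjusted p under 0.05, 1 of the 40 was called, against 0.501% of all tested genes. Before adjustment 6 of the 40 (15%) had a p under 0.05, which is close to the background of 13.6%, and of these 3 were higher and 3 lower, against 6.67% and 6.89% of all tested genes. In 11 genes (27.5%) the values of the groups did not overlap, against 20.2% of all tested genes. Of these, 6 were higher and 5 lower, against 9.77% and 10.5% of all tested genes. The median log2 fold change was 0.05 for the 40 genes and -0.00 for all tested genes, with 27 of the 40 above 0. For 24 of the 40 genes the 95% interval of the log2 fold change, which is not adjusted for the number of genes, lay between -0.32 and 0.32, against 49.9% of all tested genes. These intervals and p-values measure the spread between pools, and which litters went into which pool is not given in the sources used here.

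**Figure D1:**
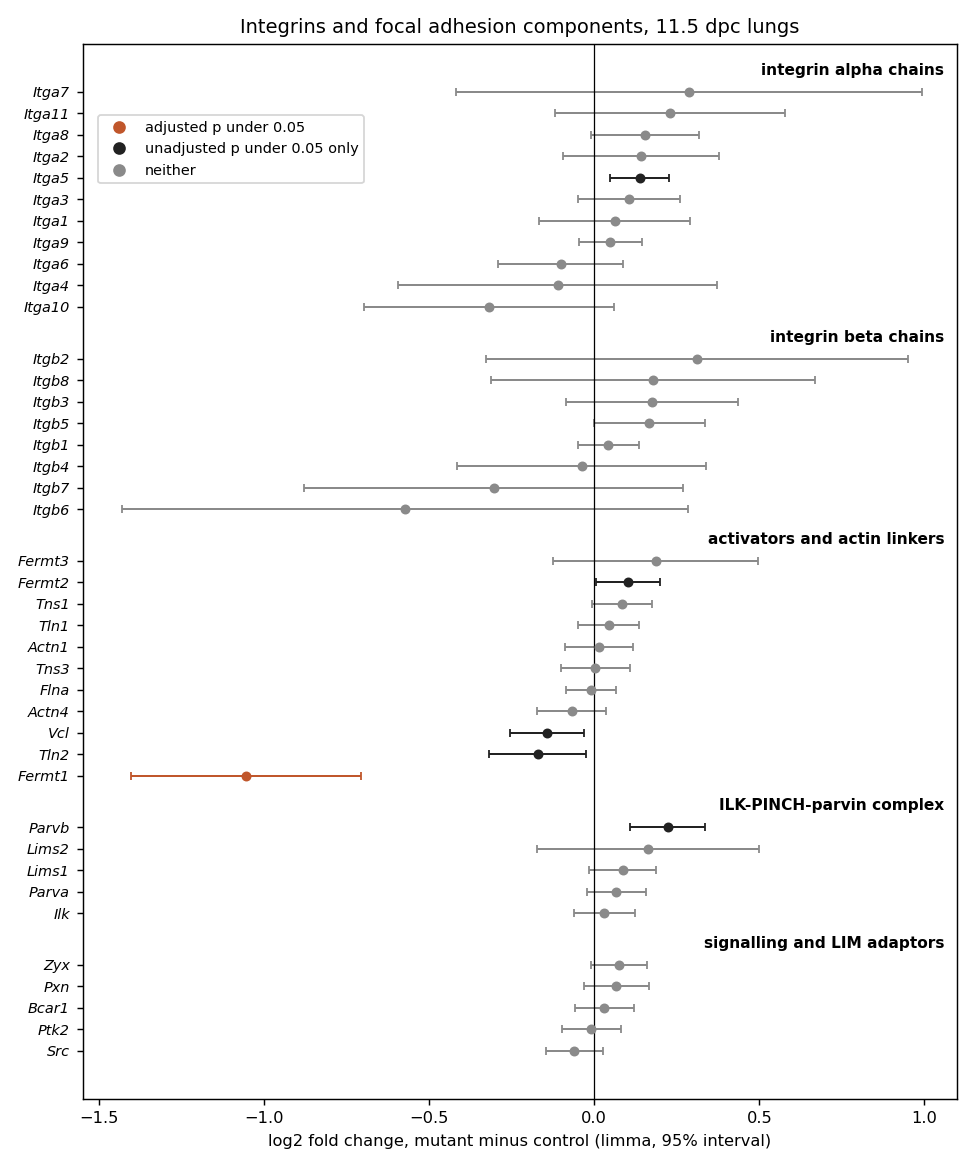
Log2 fold change (mutant minus control, limma on log2(normalized count + 1)) of the 40 genes on the x axis, with 95% intervals from 3 pools against 3, grouped by role. *Fermt1*, at -1.05, is the gene with an adjusted p under 0.05, and the other genes lie between -0.57 and 0.31.

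The targeted gene was examined in every pool. For *Rptor*, control pools 1, 2 and 3 had normalized counts of 2126, 2193 and 2279, whereas mutant pools 1, 2 and 3 had 2023, 2137 and 2148. The groups overlapped (log2 fold change -0.06, 95% interval -0.17 to 0.04, limma adjusted p = 0.584). These counts cover the whole gene in all cells of the lung, so they do not show the floxed exon in the epithelium. In whole lungs, fewer cells of a type and less RNA per cell cannot be told apart, which holds for every value given here.

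The promoters of the 3 kindlin genes are shown because they are paralogs with unequal levels and unequal log2 fold changes. They are RefSeq sequences of GRCm38.p6 of 300 bases at the start of each gene as RefSeq places it, with CpG dinucleotides in capitals. The *Fermt1* window lies upstream of the start that GENCODE M21 gives, beginning 81 bases from it, while the other 2 windows span theirs. *Fermt1* lies on chromosome 2 on the minus strand (chr2:132945987-132946286), *Fermt2* on chromosome 14 on the minus strand (chr14:45530016-45530315) and *Fermt3* on chromosome 19 on the minus strand (chr19:7019420-7019719).
Fermt1: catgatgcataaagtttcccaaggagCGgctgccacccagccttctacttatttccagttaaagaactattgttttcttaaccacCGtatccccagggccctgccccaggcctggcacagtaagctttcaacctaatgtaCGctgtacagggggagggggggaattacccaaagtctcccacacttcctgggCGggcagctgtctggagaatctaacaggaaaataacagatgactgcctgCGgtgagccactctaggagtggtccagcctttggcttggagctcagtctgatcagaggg
Fermt2: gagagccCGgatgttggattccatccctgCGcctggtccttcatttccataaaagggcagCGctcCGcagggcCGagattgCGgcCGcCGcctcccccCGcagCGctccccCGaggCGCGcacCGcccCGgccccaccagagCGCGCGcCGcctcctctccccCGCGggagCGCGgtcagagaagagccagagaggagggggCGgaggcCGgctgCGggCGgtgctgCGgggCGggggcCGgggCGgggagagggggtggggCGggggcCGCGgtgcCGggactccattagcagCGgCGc
Fermt3: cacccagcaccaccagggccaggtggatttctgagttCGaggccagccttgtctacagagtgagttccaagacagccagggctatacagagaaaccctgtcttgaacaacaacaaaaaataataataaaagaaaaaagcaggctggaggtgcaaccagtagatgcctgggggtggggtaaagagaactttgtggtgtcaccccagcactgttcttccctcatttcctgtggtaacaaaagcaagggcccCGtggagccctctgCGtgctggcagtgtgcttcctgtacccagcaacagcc
The *Fermt1* window held 5 CpG dinucleotides, the *Fermt2* window 37 and the *Fermt3* window 3, beside a median of 7.0 over the 32851 RefSeq windows. A count of at least 20 was found in 26.5% of all windows. Of the 40 genes, 30 had a window in the table, and 15 of these 30 had a window with at least 20 CpG dinucleotides. Some of the 30 had several windows, and a gene was counted when any of them matched. The shares of all windows are counted per window, so the 2 measures are not alike. On either strand, the letters GGGCGG, bound by SP and KLF factors, were present 1 time in the *Fermt1* window and 6 times in that of *Fermt2*, and were not in that of *Fermt3*. They occurred in 35.7% of all windows and in 20 of the 30. The letters AACNGGTT, read by the grainyhead-like factors of epithelia, were absent from all 3 kindlin windows and occurred in 2.09% of all windows. The letters GGAATG, bound by TEAD factors, were likewise absent from the 3 kindlin windows, and occurred in 5 of the 30 and in 14.7% of all windows. The SRF CArG box was in the *Fermt2* window 1 time and in 1.63% of all windows. These are matches of letters only.

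*Fermt1* encodes kindlin-1, which activates integrins in epithelial cells and keeps them attached to the basement membrane. Control pools 1, 2 and 3 had normalized counts of 121, 145 and 139, whereas mutant pools 1, 2 and 3 had 72.5, 53.9 and 67.7. Every mutant pool lay below every control pool, with 53.9 to 72.5 against 121 to 145. Control lungs averaged 135 ± 12.5 (SD, n = 3 pools) and mutant lungs 64.7 ± 9.66 (SD, n = 3), and *Fermt1* fell by 1.05 on the log2 scale (95% interval -1.40 to -0.71, standard error 0.16, limma adjusted p = 0.0345). In GRCm38 it occupies chromosome 2, positions 132904389 to 132945906, and its exons are not shared with another annotated gene. When 1 pool at a time was left out, the log2 fold change stayed between -1.14 and -0.93, while the adjusted p ranged from 0.0105 to 0.192 and passed without control pool 2 and without control pool 3. Without the variance trend in limma the adjusted p was 0.181.

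*Fermt2*, the kindlin of most cell types, was at 3896, 4049 and 3733 in the control pools versus 4295, 4054 and 4176 in the mutant pools. Its lowest mutant value was just above its highest control value. The log2 fold change was 0.10 (95% interval 0.00 to 0.20), which had an unadjusted p of 0.0432 and a limma adjusted p of 0.35. *Fermt3*, the kindlin of blood cells, was at 221, 195 and 297 in the control pools versus 277, 264 and 259 in the mutant pools, and the groups overlapped (log2 fold change 0.19, limma adjusted p = 0.603). This value was 0.056 without control pool 2 and 0.36 without control pool 3 (limma adjusted p = 0.0804).

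The log2 ratio of *Fermt1* to *Fermt2* is taken within a pool and is barely touched by scaling between libraries. Control pools 1, 2 and 3 had ratios of -5.0, -4.80 and -4.74, whereas mutant pools 1, 2 and 3 had -5.87, -6.21 and -5.93. Control lungs averaged -4.84 ± 0.14 (SD, n = 3) and mutant lungs -6.00 ± 0.18 (SD, n = 3), a difference of -1.16. No pool of 1 group reached the range of the other (p = 0.1 in a two-sided exact permutation test, adjusted p = 0.3 over 9 ratios), and 0.1 is the smallest p that 3 pools against 3 allow.

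Epithelial markers also moved between the groups. Of 22 epithelial markers, 20 were lower and 1 was higher at an unadjusted p under 0.05, against 6.89% and 6.67% of all tested genes. At an adjusted p under 0.05, 7 were lower, against 0.315% of all tested genes. Their summed normalized count was between 19655 and 23908 in control pools and between 15414 and 16785 in mutant pools. The median log2 fold change of the list was -0.47. None of the 22 was at 0. *Cdh1*, which encodes E-cadherin and is also the ligand of the integrin chain *Itgae*, was at 1507, 1522 and 1288 in the control pools versus 824, 630 and 753 in the mutant pools. The log2 fold change of *Cdh1* was -0.97 (95% interval -1.19 to -0.75, limma adjusted p = 0.00728), near the -1.05 of *Fermt1*. *Elf5*, a factor of distal epithelium, was the 1 marker whose log2 fold change (-1.42) was below that of *Fermt1*. The marker that was higher was *Krt19* (0.44), which the mesothelium also expresses.

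Set beside the mean log2 value of these 22 markers, *Fermt1* was at -2.50, -2.34 and -2.09 in the control pools versus -2.80, -3.05 and -2.87 in the mutant pools. The difference in this ratio was -0.60, with no overlap between groups (p = 0.1 in a two-sided exact permutation test, adjusted p = 0.175 over 7 ratios). With control pool 3 left out it was -0.49. The mean log2 value of the markers themselves averaged 9.39 ± 0.16 (SD, n = 3) in the control and 8.93 ± 0.095 (SD, n = 3) in the mutant group.

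The chains that serve epithelia as laminin and collagen receptors had similar values in both groups. *Itga6*, a laminin receptor chain found in epithelium and endothelium, was at 1179, 1301 and 1038 in the control pools versus 1173, 1001 and 1095 in the mutant pools. The groups overlapped, (log2 fold change -0.10, 95% interval -0.29 to 0.09, limma adjusted p = 0.652). Relative to the epithelial markers, *Itga6* was at 0.78, 0.82 and 0.80 in the control pools versus 1.19, 1.14 and 1.12 in the mutant pools, a difference of 0.36 with no overlap. *Itga3*, a further laminin receptor chain, had a log2 fold change of 0.10 (95% interval -0.05 to 0.26, adjusted p = 0.552) and a ratio to the markers that was higher by 0.56 in mutant pools. *Itga2*, a collagen receptor chain, was at 164 to 198 in the control pools versus 194 to 211 in the mutant pools, and its ratio to the markers was higher by 0.60. Each of these 3 ratios lacked overlap between groups (p = 0.1 in the exact permutation test, adjusted p = 0.175). The mean log2 value of the markers was itself lower in mutant pools, with a difference of -0.46. A gene with equal counts in both groups would therefore have a ratio higher by about that much. These ratios alone do not show a rise of the chains. The share of each cell type in these values was not tested.

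*Itgb4*, the chain that builds hemidesmosomes with *Itga6*, was at 122, 81.6 and 119 in the control pools versus 109, 101 and 99.1 in the mutant pools. Control pool 2 held the lowest of the 6 values, and the log2 fold change was -0.04 (95% interval -0.41 to 0.34, limma adjusted p = 0.945). *Itgb6*, which pairs with *Itgav* and activates latent TGF-beta in epithelia, had few reads, with normalized counts between 5.88 and 21.7 in all pools. Its interval of -1.43 to 0.28 on the log2 scale does not exclude 0 or a change as large as that of *Fermt1*. *Itgb8*, which also pairs with *Itgav* and activates latent TGF-beta, was at 141, 97.1 and 206 in the control pools versus 158, 155 and 167 in the mutant pools (log2 fold change 0.18, adjusted p = 0.771), and its direction turned without control pool 2. The log2 ratio of *Itga6* to *Itga5* differed by -0.24 (mutant minus control), with no overlap (p = 0.1 in the exact permutation test, adjusted p = 0.3 over 9 ratios). The ratios of *Itgb4*, *Itgb6* and *Itgb8* to the markers overlapped between groups (differences of 0.42, -0.12 and 0.63).

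**Figure D2:**
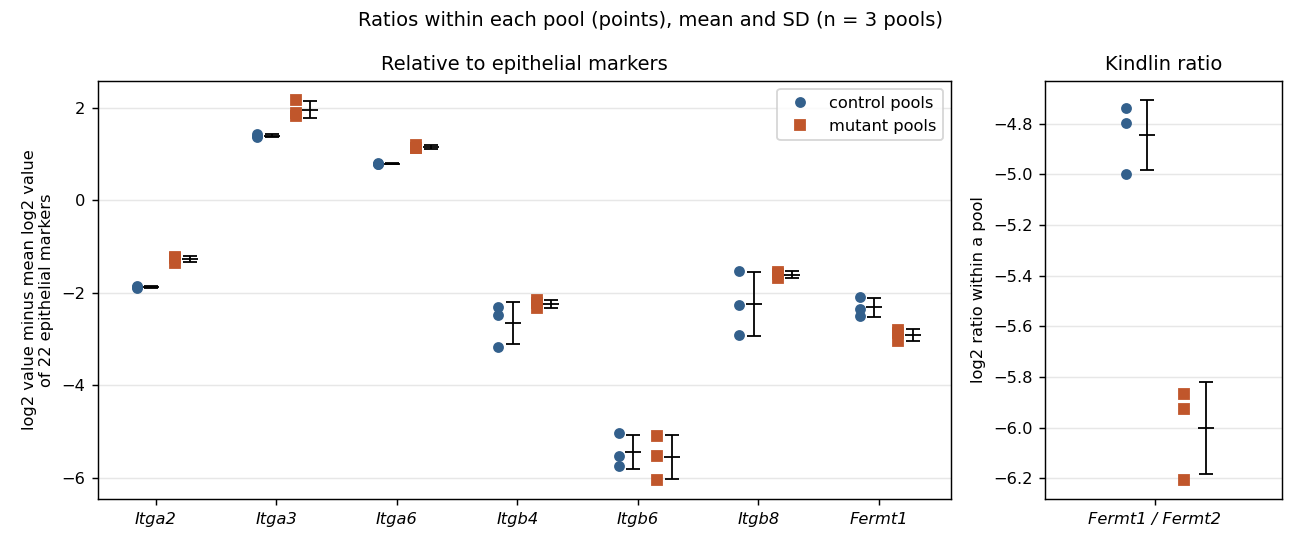
Left, log2 value of 7 genes minus the mean log2 value of 22 epithelial markers in each pool, and right, log2 ratio of *Fermt1* to *Fermt2*, with the mean and SD of 3 control and 3 mutant pools. *Fermt1* is lower in the mutant pools on both scales, while *Itga2*, *Itga3* and *Itga6* are higher relative to the markers. The mean of the markers is itself lower in the mutant pools (difference -0.46), which raises every ratio to them.

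Levels were compared between the 19 numbered integrin chains as normalized counts per kb of exon. Exon lengths came from GENCODE M21, which may differ from the annotation the authors counted on. *Itgav*, which has no number and is not in this order, was at 159 per kb (mean of the 6 pools). *Itgb1*, the partner of most alpha chains, had the highest level at 2707 per kb (mean of the 6 pools). *Itgb5*, a vitronectin receptor chain, followed at 860 per kb and *Itga5*, the fibronectin receptor chain, at 655 per kb, and the pools of these 3 chains did not overlap with each other. *Itga9*, which binds tenascin-C and SVEP1, and *Itga3* came next at 334 and 323 per kb, and their pools overlapped, as did those of *Itga3* and *Itga8*, a nephronectin receptor chain. *Itga6* was at 125, *Itga4*, a receptor chain for VCAM1 and fibronectin, at 106 and *Itgb3* at 78.8 per kb, also with overlap between neighbours. The collagen receptor chains were low, with *Itga2* at 27.0, *Itga1* at 24.8, *Itga11* at 17.5 and *Itga10* at 15.9 per kb. *Itgb4* (15.02), the leukocyte chain *Itgb2* (14.3) and *Itgb8* (13.9) overlapped with one another, *Itgb7* of lymphocytes was at 7.32, and *Itgb6* (1.76) and the muscle chain *Itga7* (1.63) were at the bottom.

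**Figure D3:**
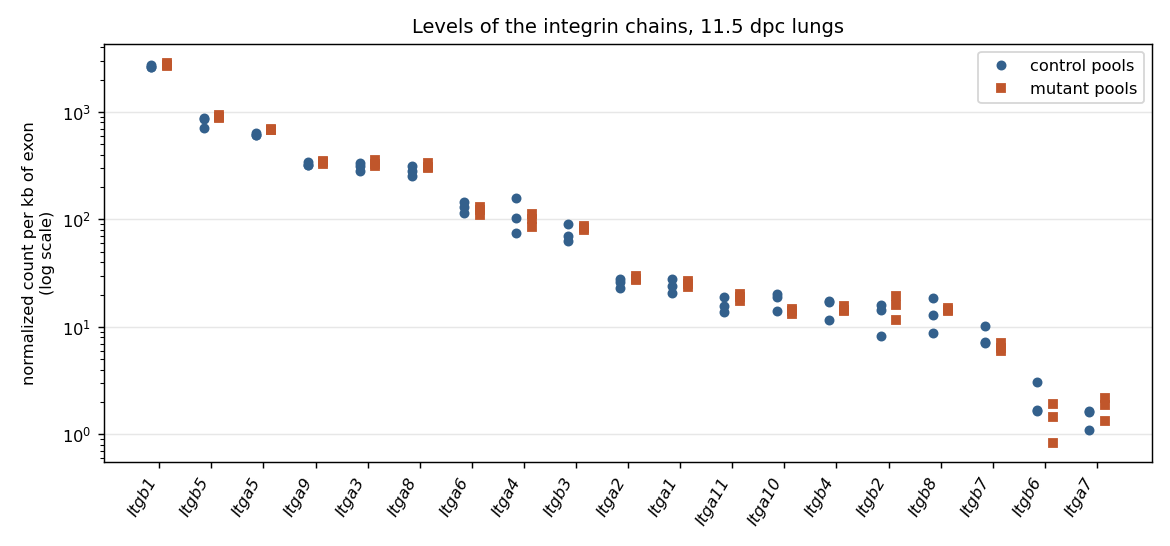
Normalized count per kb of exon (y axis, log scale) of the 19 integrin chains in each control and mutant pool, in order of the mean. *Itgb1* lies at 2707 per kb and *Itga7* at 1.63 per kb, and control and mutant pools lie close together for most chains.

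Among the 11 alpha chains 8 had a log2 fold change above 0 and 3 below, with a median of 0.10. An unadjusted p under 0.05 was found for 1 of the 11, against 13.6% of all tested genes. This chain was *Itga5*, at 3009, 3175 and 3043 in the control pools versus 3448, 3347 and 3357 in the mutant pools. The lowest mutant pool exceeded the highest control pool, and the log2 fold change was 0.14 (95% interval 0.05 to 0.23, standard error 0.04), with an unadjusted p of 0.00621 and a limma adjusted p of 0.172. *Itga8*, a chain of the lung mesenchyme, was at 2098, 2308 and 1880 in the control pools versus 2236, 2495 and 2247 in the mutant pools, with overlap (log2 fold change 0.15, adjusted p = 0.399), and without control pool 3 the log2 fold change was 0.078. *Itga9* was at 2476 to 2618 in the control pools versus 2549 to 2683 in the mutant pools (log2 fold change 0.05).

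*Itga4* had the widest spread among abundant chains. It was at 1434, 1038 and 2234 in the control pools versus 1558, 1189 and 1424 in the mutant pools, and control pool 3 was high. With all pools the log2 fold change was -0.11 (95% interval -0.60 to 0.37), and it was 0.18 without control pool 3 and -0.37 without control pool 2. *Itga10*, whose exon bases are shared by 33.5% with another annotated gene on the same strand, was at 72.3 to 104 in the control pools versus 68.7 to 75.6 in the mutant pools. *Itga1*, *Itga11* and *Itga7* had log2 fold changes of 0.06, 0.23 and 0.29, all with overlap between the groups, and *Itga7* rested on normalized counts of 8.84 to 17.6.

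Among the 8 beta chains 5 were above 0 and 3 below, and none had an unadjusted p under 0.05, against 13.6% of all tested genes. *Itgb1* was at 10683, 11251 and 10720 in the control pools versus 11658, 11146 and 10832 in the mutant pools, and the groups overlapped. Its 95% interval was -0.05 to 0.13 on the log2 scale, the narrowest of the beta chains. *Itgb5* was at 3045, 3120 and 2497 in the control pools versus 3131, 3328 and 3223 in the mutant pools. The groups did not overlap, control pool 3 was low, and the log2 fold change was 0.17 (unadjusted p = 0.0506, limma adjusted p = 0.369). Without control pool 3 it was 0.066. *Itgb7* was lower in every mutant pool (16.7 to 19.4) than in every control pool (19.6 to 28.5), at counts too low for its interval of -0.88 to 0.27 to exclude 0. *Itgb2* was at 24.8 to 49.1 in the control pools versus 35.3 to 59.3 in the mutant pools.

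*Itgb3*, which pairs with *Itga2b* on platelets and with *Itgav* on endothelium, depended on control pools 2 and 3. It was at 414, 372 and 533 in the control pools versus 468, 489 and 514 in the mutant pools, so that control pool 3 exceeded every mutant pool. With all pools the log2 fold change was 0.17 (limma adjusted p = 0.557), and without control pool 3 it was 0.32 (limma adjusted p = 0.0491). Without control pool 2 it was 0.062 (limma adjusted p = 0.823). The summed count of 10 platelet and megakaryocyte markers was 1076, 901 and 1289 in control pools 1, 2 and 3, and 1290 to 1363 in mutant pools, and its part in the values of *Itgb3* was not tested. None of these markers was at 0.

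Of the 11 activators and actin linkers, 1 was called and 4 had an unadjusted p under 0.05, against 0.501% and 13.6% of all tested genes. The 4 were the kindlins *Fermt1* and *Fermt2* and the actin linkers described next. *Vcl* encodes vinculin, which is recruited to adhesions under tension. It was at 3142, 3198 and 3456 in the control pools versus 3074, 2823 and 2969 in the mutant pools. All mutant pools were below all control pools, (log2 fold change -0.14, 95% interval -0.26 to -0.03, unadjusted p = 0.0171, limma adjusted p = 0.242). Exons of *Ap3m1* on the other strand cover 25.5% of the exon bases of *Vcl*, and since no source used here says whether counting used strand, reads of the 2 genes may not be told apart.

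Of the talins, *Tln2* was at 1616, 1557 and 1875 in the control pools versus 1502, 1477 and 1490 in the mutant pools. The groups did not overlap, and control pool 3 was well above the others. The log2 fold change was -0.17 (unadjusted p = 0.0271, limma adjusted p = 0.293), and without control pool 3 it was -0.091. *Tln1*, the talin with the higher count, was at 8181 to 8874 in the control pools versus 8539 to 8930 in the mutant pools, and its log2 fold change was 0.04. The log2 ratio of *Tln1* to *Tln2* was higher by 0.21 in mutant pools, with overlap (exact permutation test, p = 0.2, adjusted p = 0.3 over 9 ratios).

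The tensins couple integrins to actin at older, fibronectin-bound adhesions. *Tns1* was at 2495, 2620 and 2602 in the control pools versus 2697, 2715 and 2762 in the mutant pools, with no overlap (log2 fold change 0.08, limma adjusted p = 0.401). *Tns3* differed by 0.00 (95% interval -0.10 to 0.11). *Flna*, which encodes the actin crosslinker filamin A, had the highest level per kb of all 40 genes (3491), and its counts lay between 32548 and 33111 in all 6 pools, with a 95% interval of -0.09 to 0.07. The alpha-actinins had log2 fold changes of 0.02 (*Actn1*) and -0.07 (*Actn4*). Their log2 ratio was -0.39, -0.39 and -0.38 in the control pools versus -0.35, -0.27 and -0.28 in the mutant pools, a difference of 0.08 with no overlap (exact permutation test, p = 0.1, adjusted p = 0.3).

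**Figure D4:**
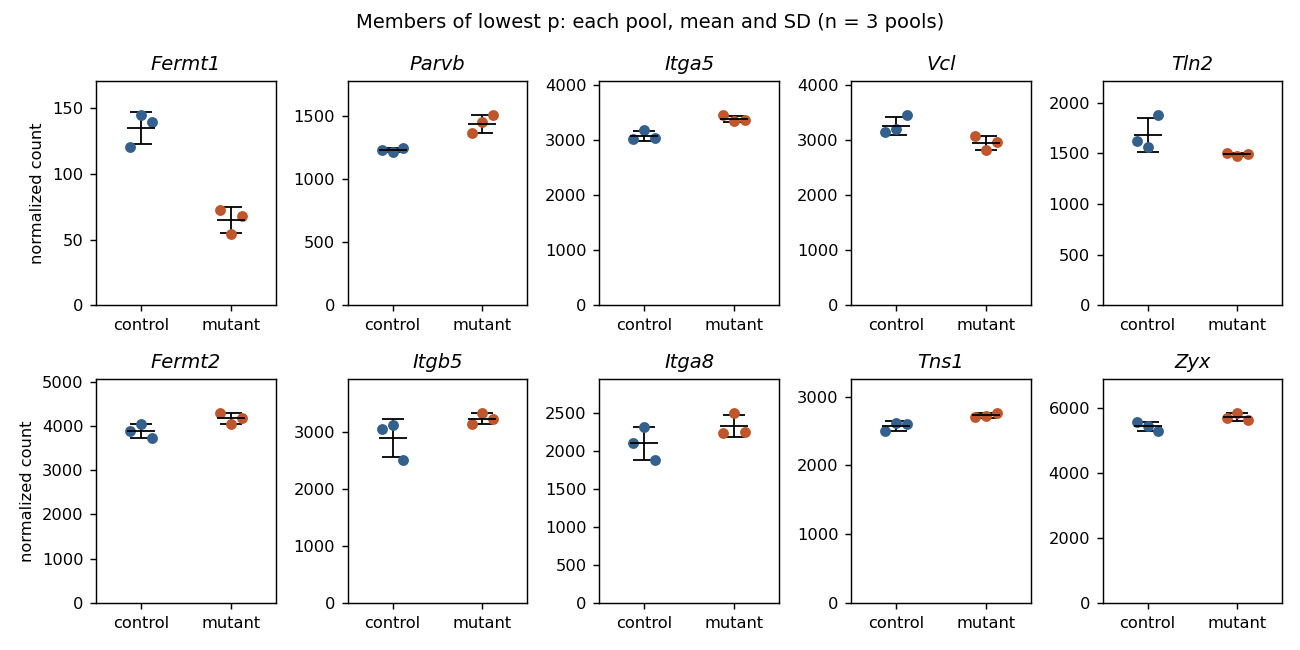
Normalized count (y axis, from 0) of the 10 genes of lowest p in each of 3 control and 3 mutant pools, with the mean and SD. *Fermt1* drops from 121 to 145 in control pools to 53.9 to 72.5 in mutant pools, and the other 9 genes differ by at most 16.8% between the group means.

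In the complex of ILK, PINCH proteins and parvins, all 5 genes had a log2 fold change above 0, as had 8495 of the 17168 tested genes. An unadjusted p under 0.05 was found for 1 of the 5, against 13.6% of all tested genes. *Parvb* encodes beta-parvin, which links ILK to actin. It was at 1233, 1217 and 1251 in the control pools versus 1366, 1450 and 1508 in the mutant pools, and each mutant pool lay above each control pool. The log2 fold change was 0.22 (95% interval 0.11 to 0.34, standard error 0.05), with an unadjusted p of 0.00136 and a limma adjusted p of 0.101. Without control pool 3 the adjusted p in limma was 0.0328, in a fit that called 2.75% of all tested genes. On the reads of the 5 libraries that could be used as counts, edgeR gave *Parvb*, *Fermt1* and *Itgb3* an adjusted p under 0.05, and DESeq2 gave it to *Parvb* and *Fermt1*, against 3.68% and 3.26% of all genes with an adjusted p. At an unadjusted p under 0.05 these tools called 18.7% and 8.87% of all genes, and limma without control pool 3 called 16.9%. *Parva*, alpha-parvin, was at 4752 to 5060 in the control pools versus 4980 to 5220 in the mutant pools (log2 fold change 0.07) (95% interval -0.02 to 0.16). The log2 ratio of *Parva* to *Parvb* differed by -0.16, with overlap (exact permutation test, p = 0.2, adjusted p = 0.3).

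*Lims1*, the PINCH protein of most cells, had a log2 fold change of 0.09 (95% interval -0.02 to 0.19) and *Lims2* of 0.16, at 65.1 to 82.8 normalized counts. *Ilk*, the core of the complex, had a log2 fold change of 0.03. Exons of *Rrp8* and *Taf10* on the other strand cover 89.7% of its exon bases in the annotation, so its value is uncertain.

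The signalling genes and LIM adaptors differed by less than 0.1 on the log2 scale. *Zyx*, the tension-sensitive adaptor zyxin, was at 5566, 5468 and 5288 in the control pools versus 5704, 5856 and 5639 in the mutant pools, with no overlap (log2 fold change 0.08, limma adjusted p = 0.418). *Src* was at 2607 to 2699 in the control pools versus 2517 to 2552 in the mutant pools, also with no overlap, and its log2 fold change was -0.06 (adjusted p = 0.54). *Ptk2*, which encodes focal adhesion kinase, had a log2 fold change of -0.01 (95% interval -0.10 to 0.08). *Bcar1*, which encodes the docking protein p130Cas, and *Pxn*, which encodes paxillin, had log2 fold changes of 0.03 and 0.07, with intervals of -0.06 to 0.12 and -0.03 to 0.17.

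Markers of mesenchyme, endothelium and smooth muscle tended to higher values in the mutant pools. Those of cardiac muscle and of neural crest and neurons did not, with median log2 fold changes of -0.41 and -0.02. Of 15 mesenchymal markers, 7 were higher and 0 lower at an unadjusted p under 0.05, against 6.67% and 6.89% of all tested genes. The median log2 fold change of the 15 was 0.17, with summed counts of 112351 to 118973 in control pools and 135412 to 142358 in mutant pools. Collagens made up most of these sums. Control and mutant means were 19800 and 27828 for *Col1a1*, 24270 and 30639 for *Col1a2*, and 27391 and 32858 for *Col3a1*. For 7 of the 15 markers every mutant pool lay above every control pool, against 9.77% of all tested genes. Of 12 endothelial markers, 8 were higher and 0 lower at the same unadjusted p, with a median of 0.19 and sums of 15712 to 17750 and 18452 to 19024. Of 8 smooth muscle markers, 5 were higher and 0 lower at it, with a median of 0.25 and sums of 9213 to 11045 and 11795 to 12810. No marker of these lists was at 0. Beside these medians, the log2 fold changes were 0.22 for *Parvb*, 0.14 for *Itga5* and 0.10 for *Fermt2*, and the part of cell composition in them was not tested.

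Outside the 40 genes, 46 further focal adhesion genes were tested. At an adjusted p under 0.05, 0 were lower and 1 was higher, against 0.315% and 0.186% of all tested genes. The gene called was *Flnc*, the filamin of muscle, at 4047, 4316 and 4180 in the control pools versus 4867, 5555 and 4985 in the mutant pools (log2 fold change 0.29, limma adjusted p = 0.0496). At an unadjusted p under 0.05, 8 of the 46 were higher and 2 lower, against 6.67% and 6.89% of all tested genes. The median log2 fold change of the 46 was 0.05.

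Of 41 integrin ligands, 3 were higher and 2 lower at an adjusted p under 0.05, against 0.186% and 0.315% of all tested genes. At an unadjusted p under 0.05, 12 were higher and 5 lower, against 6.67% and 6.89% of all tested genes. The 3 ligands of lowest p were *Cdh1*, given above, and *Col1a1* (log2 fold change 0.49) and *Col1a2* (0.34), the chains of collagen I. Also called were *Lamb3*, a laminin chain (log2 fold change -0.79, limma adjusted p = 0.0385), and *Col3a1* (0.26). *Col1a1* was at 18948 to 21042 in the control pools versus 25994 to 30254 in the mutant pools. The collagen receptor chains *Itga1*, *Itga2*, *Itga10* and *Itga11* had log2 fold changes of 0.06, 0.14, -0.32 and 0.23, each with overlap between groups.

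Of 8 integrin chains without a numbered symbol or with a letter in it, 7 were tested and none was called. At an unadjusted p under 0.05, 1 was lower, against 6.89% of all tested genes. The 2 of lowest p had almost no reads, *Itgb2l* at 0 to 4.97 and *Itgax* at 0 to 6.13 normalized counts.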

How the data were processed

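RNA of 3 control and 3 mutant pools of whole lungs at stage E11.5dpc was sequenced by the study. The authors deposited 1 table of signal values for all 6 libraries, which are normalized counts (read numbers scaled by 1 factor per library). The submitters' processing notes name Trim Galore, HISAT2, featureCounts and DESeq2 with the build mm10, and give no versions. The labels name an Illumina library protocol and the paper a BGISEQ-500 sequencer. The table also holds the authors' mean and their own fold changes and p-values, which were not used. Of 23420 rows, 27 have symbols turned into dates.

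All values were whole multiples of 1 step per library (tolerance 0.001), which gave 20197642 to 21276090 reads in 5 libraries. The step of control pool 3 was too near 1 for the criterion set for count tests, so its reads were not used in them.

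The main test was limma 3.58.1 in R 4.3.3 (eBayes with a variance trend) on log2(normalized count + 1), restricted to genes that reached 1 in 3 or more pools, with p-values adjusted by Benjamini-Hochberg and called under 0.05. A pseudocount understates the changes of low genes. Ratios within pools were compared with two-sided exact permutation tests. Alternatives were edgeR 4.0.16 (quasi-likelihood test, TMM) and DESeq2 1.42.0 on recovered reads, other filters, pseudocount and scaling, a replicate block and leaving out each pool. All 3 tests were tested on simulated counts and recovered most changed genes with the right sign. With gene-specific dispersions, limma and edgeR made a share of false calls somewhat above the nominal level. Members, gene lists and ratios were chosen with earlier results of these data known. Pool values were printed for genes with an adjusted, then an unadjusted p under 0.05, and for those of lowest p up to 10 genes, and ratio genes were added. Other genes named are *Rptor* and up to 3 genes per list. Genes chosen after their values were seen are *Itga4*, *Itgb3*, *Fermt3*, *Itgav*, *Itga2b*, *Elf5*, *Krt19*, *Gp9*, *Ppbp*, *Pf4* and *Lamb3*. Of the listed symbols, *Tns2* and *Adgre1* were matched by older names. Proteins are not shown.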

Additional observations from a re-analysis of the deposited data

How the results depend on the processing

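Several of these results depended on the fit. At an adjusted p under 0.05, the number of the 40 genes called was 1 with all pools and 0 with limma without trend. It was 3 with edgeR and 2 with DESeq2 on the reads of 5 libraries, and 0 to 3 when 1 pool was left out. All genes called numbered 86, 8, 545, 416 and 1 to 468 in the same fits. At an unadjusted p under 0.05, 6 of the 40 became 11 with edgeR and 9 with DESeq2, against 18.7% and 8.87% of all genes. With limma without trend they became 3, and the share of all genes was not counted there. When 1 pool was left out they became 4 to 12 (10% to 30%), where 9.20% to 16.9% of all tested genes passed. The genes without overlap became 12 to 22 (30% to 55%), where 27.5% to 34.0% of all tested genes had none. Leaving out control pool 2 moved the log2 fold change of 21 of the 40 genes by over 1.5 times, and leaving out control pool 3 that of 20. The edgeR calls were *Fermt1* (adjusted p = 0.00684), *Parvb* (0.0373) and *Itgb3* (0.0448), and those of DESeq2 were *Fermt1* (0.00337) and *Parvb* (0.0413), where 3.68% and 3.26% of genes with an adjusted p were called. The direction of *Fermt1* held in all 14 alternatives.

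Directions turned for 7 genes, none of them called. Over the fits without 1 pool, the log2 fold change spanned -0.092 to 0.45 for *Itgb8*, -0.045 to 0.16 for *Itga1*, -0.37 to 0.18 for *Itga4*, -0.016 to 0.061 for *Actn1*, -0.22 to 0.062 for *Itgb4*, -0.022 to 0.0079 for *Ptk2* and -0.034 to 0.035 for *Tns3*. With edgeR and DESeq2 it was -0.047 and -0.046 for *Itga1*, 0.17 and 0.17 for *Itga4*, -0.018 and -0.017 for *Actn1*, and 0.015 and 0.018 for *Itgb4*. The ratio of *Itgb4* to *Itgb1* spanned -0.29 to 0.033 and that of *Itgb6* to the epithelial markers -0.34 to 0.13. The cause was not tested. The other ratios kept their direction in the alternatives run.

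With the replicate number as a block, 1 of the 40 genes and 71 of all genes were called, and *Fermt1* had an adjusted p of 0.0425. Deviations of same-numbered pools from their group means had correlations of -0.02, 0.10 and 0.03. With 3 pools per group these values cannot decide whether the numbers pair the pools, and the sources used here do not say. Genes with under 100 normalized counts have wide intervals, which limits what could be seen for *Itgb6*, *Itgb7* and *Itga7*.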

Other observations

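The 40 genes varied more among control pools than among mutant pools. The coefficient of variation was larger among control pools for 33 genes and among mutant pools for 7, with medians of 7.37% and 3.78%. The same was not counted over all tested genes, so it is not known to be particular to these 40. Control pool 3 was the control farthest from its group's median for 17 genes, control pool 2 for 14 and control pool 1 for 9. *Itgav*, the alpha chain that pairs with *Itgb3*, *Itgb5*, *Itgb6* and *Itgb8*, was at 1660, 1469 and 2045 in the control pools versus 1717, 1706 and 1679 in the mutant pools, so that control pool 3 was high there as it was for *Itga4*, *Itgb3* and *Itgb8*, while for *Itgb5* it was low. The log2 fold change of *Itgav* was -0.01 (95% interval -0.22 to 0.21).

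Platelet genes were listed because platelets carry *Itga2b*, *Itgb3* and *Fermt3*. Of 10 such markers, 3 were higher in mutant pools at an unadjusted p under 0.05 and none at an adjusted p under 0.05 in limma. These were *Gp9* (log2 fold change 0.74), *Ppbp* (0.48) and *Pf4* (0.38), each with no overlap between groups. *Itga2b* itself was at 249, 199 and 280 in the control pools versus 252, 267 and 261 in the mutant pools, with overlap (log2 fold change 0.11, limma adjusted p = 0.737). The 11 macrophage markers all had log2 fold changes above 0, with 0 at an unadjusted p under 0.05 and a median of 0.14. Cardiac markers had a median of -0.41, with 3 of 8 lower at an unadjusted p under 0.05. Neural crest and neuron markers had 2 of 8 lower, mesothelial markers 4 of 8 higher, and erythroid markers 0 of 5 tested in either direction, with medians of -0.02, 0.20 and 0.05. Among all tested genes, 6.67% were higher and 6.89% lower at an unadjusted p under 0.05.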
